A study of Gallus gallus with 12 samples.

Results

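The genes described here are the Notch ligands DLL1, JAG1 and JAG2, the Notch receptors NOTCH1 and NOTCH2, and the fringe enzyme LFNG, chosen by name. All 6 were present in the count table and in the normalized table, among 13106 chick genes. Each was followed across 12 RNA sequencing libraries made from 6 embryos of the chick (Gallus gallus) with 8 or 9 somites. The mature Organiser, Hensen's node after gastrulation, had been marked in every embryo as gastrulation ended. The node library of an embryo held fluorescent cells that were still in the Organiser, while its lateral counterpart held neighbouring ectoderm and mesoderm, which the labels describe as neural plate and emerging presomitic mesoderm. In the 3 manual embryos the tissue was separated by hand while the embryo was live. In the 3 laser capture (LCM) embryos it was cut from paraffin sections after fixation in modified methacarn. For both methods embryo 1 was at 8 somites and embryos 2 and 3 at 9, and no genotype or treatment other than the marking is given. The 4 groups are thus manual node, manual lateral, LCM node and LCM lateral, with 3 libraries each.

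Notch signalling passes between touching cells. A ligand on one cell (Delta-like or Jagged) binds a Notch receptor on its neighbour, the receptor is cut by ADAM proteases and then by gamma-secretase, and its inner part enters the nucleus, where with RBPJ it switches on repressors of the HES and HEY family. Fringe enzymes such as Lunatic fringe (LFNG) add sugars to the receptor and so alter how it answers Delta and Jagged. In the presomitic mesoderm of chick and mouse embryos, DLL1, LFNG and HES genes belong to the segmentation clock that sets the rhythm of somite formation.

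Total counts ran from 18568123 to 30997461 per library, from 1 to 7 ng of total RNA amplified as full-length cDNA, and 4909 genes were counted in all 12 libraries. TBXT, a T-box factor known from the node and notochord, was looked up first, and its counts were higher in node than in lateral tissue in 6 of 6 embryos. Of the other node and notochord markers, SHH had 0 counts in every LCM library, and CHRD had 0 in LCM node 1. GNOT1, a notochord homeobox gene, had fewer node than lateral counts in LCM embryo 1 (333 against 1251), and more in manual embryos 1 to 3 and LCM embryo 3. In LCM embryo 2 it had 810 against 882 counts, at library size factors of 1.10 and 1.21, which gives no direction. Presomitic mesoderm markers (TBX6, MSGN1, PCDH8 and MEOX1) summed to 1087 to 2311 normalized units in manual node, 1307 to 1831 in manual lateral, 81.6 to 5235 in LCM node and 0.825 to 3344 in LCM lateral libraries. Markers of endothelium and blood summed to 17350 units in LCM lateral 2, mostly globin genes, and to at most 800 in any other library. In genes otherwise seen in manual embryo 1 alone, LCM node 2 had a median of about 3.45% of the counts of manual lateral 1. This share is called carried below, and how it arose was not tested. Normalized values are counts divided by the authors' size factor of the library. They are compared within a gene and not between genes, because no gene lengths were used. In bulk tissue, fewer cells of a type and less RNA per cell cannot be told apart.

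DLL1, the Delta ligand of presomitic mesoderm and early neural tissue, was the member that separated the methods. Its counts in node and lateral tissue were 470 against 409, 57 against 158 and 122 against 53 in manual embryos 1 to 3. In LCM embryos 1 to 3 they were 9448 against 10355, 5840 against 1011 and 6572 against 5217. Every LCM library lay above every manual library, in both tissues. On the normalized scale LCM libraries ran from 834 to 10830 and manual libraries from 55.2 to 350.5. Of 9491 tested genes, 198 (2.09%) likewise had all 6 LCM libraries above all 6 manual libraries, and DLL1 was the single member among them.

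Group means of DLL1, in normalized units (SD, n = 3), were 5941 ± 1670 in LCM node, 4978 ± 5215 in LCM lateral, 184 ± 149 in manual node and 163 ± 112 in manual lateral libraries. Within each method the node and lateral means lay closer together than their spread, so the order within a method cannot be read. In each of the 4 groups the highest DLL1 value came from embryo 1, the embryo with 8 somites. With a single such embryo per method, stage and embryo cannot be told apart, and this feature was picked out after the values were seen.

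**Figure D1:**
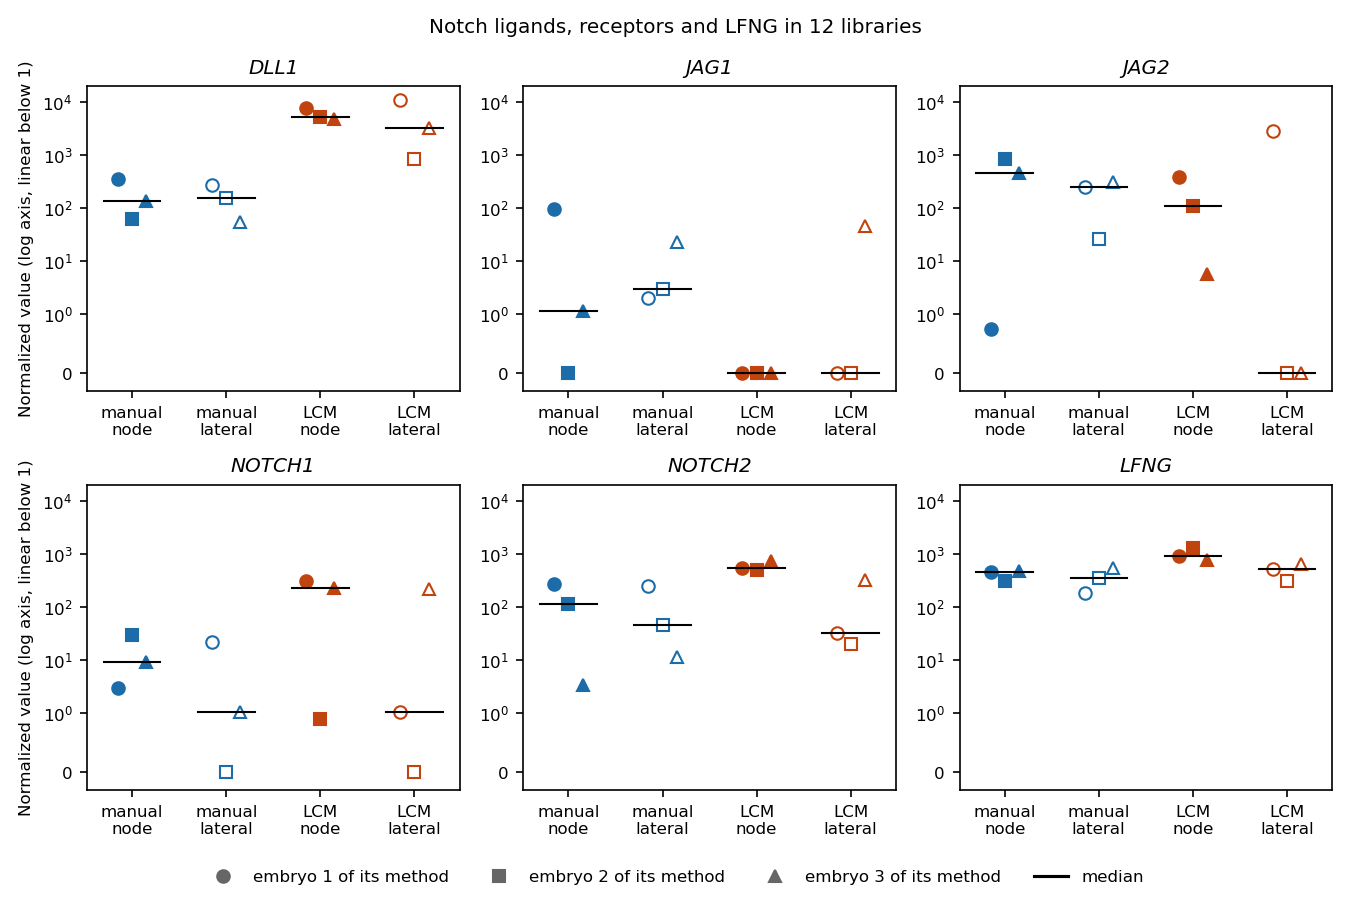
Normalized value (vertical log axis, linear below 1) of each gene in the 12 libraries. Circles, squares and triangles are embryos 1, 2 and 3 of a method, filled for node and open for lateral, blue for manual and red for LCM, and black lines are medians of 3. DLL1 in LCM libraries lies at 834 or above, clear of the manual libraries at 350.5 or below, while JAG1 is at 0 in 6 libraries and LFNG is the most even.

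Between the methods, the summed DLL1 counts of an embryo were 30.9-fold higher with LCM. This is a log2 fold change of 4.95 ± 0.69 (approximate SE, 3 embryos against 3). The unadjusted p was 5.12e-05, the third smallest of 9113 genes, but the adjusted p of edgeR's quasi-likelihood test was 0.134 and DLL1 was not called. No gene was called in this comparison (0%), although 1210 had an unadjusted p below 0.05 and DESeq2 called 721. Over 12 other settings the DLL1 fold change ran from 4.47 to 5.69 and its adjusted p from 3.83e-11 to 0.377, and 3 settings called it. Those were DESeq2, edgeR without a filter on low counts (adjusted p 0.00488) and edgeR without manual embryo 1 (adjusted p 0.0128). The fold change thus moved little under these settings, while the call depended on the tool, the filter and manual embryo 1.

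DLL1 gave similar values when each tissue was taken alone. In node libraries the log2 fold change was 5.11 ± 0.76, the smallest p of 7985 genes, with an edgeR adjusted p of 0.342. In lateral libraries it was 4.90 ± 1.10, with an edgeR adjusted p of 0.216. Again no gene was called in either tissue (0% of 7985 and 0% of 7851), with 802 and 748 genes at an unadjusted p below 0.05. DESeq2 called 394 genes in node libraries and 369 in lateral libraries, DLL1 among them in both. The LCM and manual embryos were different embryos handled separately, so method and embryo cannot be told apart.

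Beside this DLL1 difference, the 3 presomitic markers that could be tested had log2 fold changes between methods of 0.43 ± 1.16 (TBX6), -1.12 ± 1.16 (MSGN1) and 3.03 ± 2.22 (PCDH8) on embryo sums. Summed node and notochord markers reached 3965 to 20180 normalized units in LCM lateral and 1053 to 5408 in manual lateral libraries. In node libraries they reached 17120 to 29670 with LCM and 8445 to 19400 with manual dissection, and these ranges overlap in both tissues. LCM lateral 2 had 0 counts of both TBX6 and MSGN1 and 1011 of DLL1. Without LCM embryo 2, which holds the globin counts and the carried reads, the DLL1 difference was 5.20 ± 0.72. With the carried share subtracted it was 4.91 ± 0.70. The part of tissue composition in the difference was not tested.

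Between node and lateral tissue DLL1 showed no common direction. The node value was higher in 4 of 6 embryos, and the difference per embryo ran from -1.38 log2 CPM in manual embryo 2 to 3.19 in LCM embryo 2. The fitted log2 fold change was 0.55 ± 0.55 over both methods, 0.13 ± 0.77 in manual embryos and 1.02 ± 0.80 in LCM embryos. The difference between those methods was 0.89 ± 1.11, which did not pass the edgeR test.

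JAG1, the Jagged ligand known from vessels, inner ear and many epithelia, was barely detected. Its node and lateral counts were 128 against 3, 0 against 3 and 1 against 22 in manual embryos 1 to 3. In LCM embryos it had 0 counts in 5 libraries and 73 in lateral tissue of embryo 3. A count of 0 allows up to 3 counts, for counting error only. Only 3 libraries held more than 3 JAG1 counts, and manual node 1 alone gave 56.1% of the normalized sum, so no group level can be stated. The JAG1 row also overlaps an unnamed gene, ENSGALG00000026351, and as the sources used here do not say whether counting used strand, the reads of the overlap cannot be told apart. The fitted node against lateral log2 fold change over both methods was -3.13 ± 2.70, and no fold is given for LCM embryos, where all node libraries were at 0. On embryo sums the value for LCM against manual was -1.30 ± 2.34. JAG1 was too low for the test in node libraries alone or in lateral libraries alone.

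JAG2, the second Jagged ligand, was detected in 10 libraries and jumped between extremes. Its node and lateral counts were 1 against 369, 775 against 27 and 401 against 303 in manual embryos. In LCM embryos they were 475 against 2716, 122 against 0 and 8 against 0. Neither tissue was steadily higher, and LCM lateral 1 alone gave 54.1% of the normalized sum over all libraries. The standard deviation of JAG2 over the 12 libraries, 3.76 log2 CPM, exceeded that of 97.3% of tested genes, whose median was 2.36. Mean normalized values were 947 ± 1641 in LCM lateral, 436 ± 425 in manual node, 198 ± 152 in manual lateral and 170 ± 201 in LCM node libraries (SD, n = 3), an order within the spread throughout. Fitted log2 fold changes were 1.90 ± 2.56 for node against lateral and 0.64 ± 1.63 for LCM against manual. The sign of both turned under other settings, to -0.30 and -2.26 with limma voom.

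NOTCH1, a receptor broadly used in neural and mesodermal progenitors, had low counts in manual embryos, with node and lateral values of 4 against 33, 27 against 0 and 8 against 1. In LCM embryos they were 372 against 1, 1 against 0 and 317 against 352. Thus 3 LCM libraries held 317 to 372 counts and the other 3 held at most 1, with no library between. The manual libraries reached at most 33 counts. The single count in LCM node 2 is the size of the share computed from manual lateral 1, so subtracting that share leaves 0.

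The NOTCH1 node value was the higher one in 5 of 6 embryos, but in LCM embryo 2 this is 1 count against 0 and gives no direction. Its difference per embryo ran from -2.31 log2 CPM in manual embryo 1 to 6.75 in LCM embryo 1, while LCM embryo 3 had nearly equal values. The fitted log2 fold change was 3.13 ± 2.48 for node against lateral, with an edgeR adjusted p of 0.999. For LCM against manual it was 3.58 ± 2.06 on embryo sums, with an edgeR adjusted p of 0.484. Mean normalized values were 179 ± 159 in LCM node, 73.8 ± 127 in LCM lateral, 13.9 ± 14.0 in manual node and 7.84 ± 12.7 in manual lateral libraries (SD, n = 3), each within the spread of its neighbour in this order.

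NOTCH2, the other receptor, was high in the node after laser capture. Its node and lateral counts were 649 against 31, 560 against 25 and 1052 against 523 in LCM embryos 1 to 3. In manual embryos they were 361 against 368, 106 against 47 and 3 against 11. On the normalized scale the LCM node libraries, at 508 to 751, were the 3 highest of all 12, and the next was LCM lateral 3 at 327.6. Within LCM embryos the node held 16.6, 24.6 and 2.29 times the lateral value, whereas in manual embryos 1 and 2 the ratios were 1.08 and 2.52 and in embryo 3 the node was lower.

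The fitted NOTCH2 log2 fold change in LCM embryos was 3.54 ± 2.05, which edgeR did not call (adjusted p 0.906), and in manual embryos it was -0.04 ± 1.55. The difference between the methods was 3.58 ± 2.69, with an unadjusted edgeR p of 0.208, so the contrast between the methods is not shown. DESeq2 called NOTCH2 in LCM embryos, at 3.36 ± 1.11 with an adjusted p of 0.0303, among 869 genes called of 9491. The adjusted p of NOTCH2 over all alternatives ran from 0.0303 to 1.00. Over both methods the value was 1.62 ± 1.45. Marker sums also differed between node and lateral libraries of the 3 LCM embryos. Presomitic markers summed to 5235 against 3344, 81.6 against 0.825 and 2319 against 628.9 normalized units, and endoderm markers to 1329 against 135, 4288 against 2927 and 6611 against 733.5. The presomitic sum of LCM node 2 held 52 TBX6, 33 MSGN1 and 5 PCDH8 counts, beside 1629, 651 and 114 in manual lateral 1. These are about the size of the carried share, which the sums keep, so LCM embryo 2 gives no clear presomitic direction. Sums were lower in the node for surface ectoderm, at 10110 to 10690 against 14680 to 23040, and for neural plate, at 6760 to 18860 against 18190 to 48030. In manual embryos endoderm sums were likewise higher in the node, and surface ectoderm sums lower, in 3 of 3, while presomitic sums were higher in embryo 2 alone. Neural plate sums were lower in the node in manual embryos 2 and 3 and slightly higher in embryo 1, at 5634 against 5505. TF made up most of each endoderm sum and FABP7 most of each neural plate sum. CLDN1 was the largest part of each surface ectoderm sum, and single markers could run against their sums. In manual embryo 1 TF had 44126 node against 16405 lateral counts, but APOA1 had 392 against 3700 and TTR 2004 against 4485. APOA1 and TTR were higher in the node in manual embryos 2 and 3. The neural plate marker SOX2 had 520 against 3 in LCM embryo 2. EPCAM, of surface ectoderm, had 2920 against 255 in LCM embryo 1. Of the presomitic markers in LCM embryo 3, TBX6 had 2705 node against 184 lateral counts and MEOX1 95 against 0. MSGN1 had fewer in the node, at 204 against 342, as did PCDH8, at 243 against 478. The part of these tissues in the NOTCH2 and LFNG values was not tested. Group means were 599 ± 133 in LCM node, 130 ± 133 in manual node, 127 ± 174 in LCM lateral and 103 ± 129 in manual lateral libraries (SD, n = 3), and the last 3 lay within each other's spread. For LCM against manual the log2 fold change was 1.69 ± 1.34 on embryo sums, 2.33 ± 1.58 in node libraries and 0.31 ± 2.03 in lateral libraries.

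LFNG, Lunatic fringe, was the most even member. Its node and lateral counts were 618 against 273, 281 against 359 and 426 against 525 in manual embryos, and 1124 against 490, 1406 against 382 and 1077 against 1025 in LCM embryos. It was counted in all 12 libraries, and the highest normalized value was 6.86 times the lowest. Its standard deviation of 0.85 log2 CPM lay at the 13.6 percentile of tested genes.

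The LCM node libraries also held the 3 highest LFNG values, 769 to 1274 normalized units, against 642 in LCM lateral 3 and at most 546.9 in manual libraries. Group means were 992 ± 258 in LCM node, 490 ± 165 in LCM lateral, 419 ± 96.2 in manual node and 362 ± 181 in manual lateral libraries (SD, n = 3), and the last 3 lay within each other's spread. The fitted log2 fold change of LFNG for node against lateral was 0.74 ± 0.80 over both methods, 1.21 ± 1.22 in LCM embryos and 0.29 ± 1.19 in manual embryos. For LCM against manual it was 0.97 ± 0.68 on embryo sums, with an edgeR adjusted p of 0.58.

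**Figure D2:**
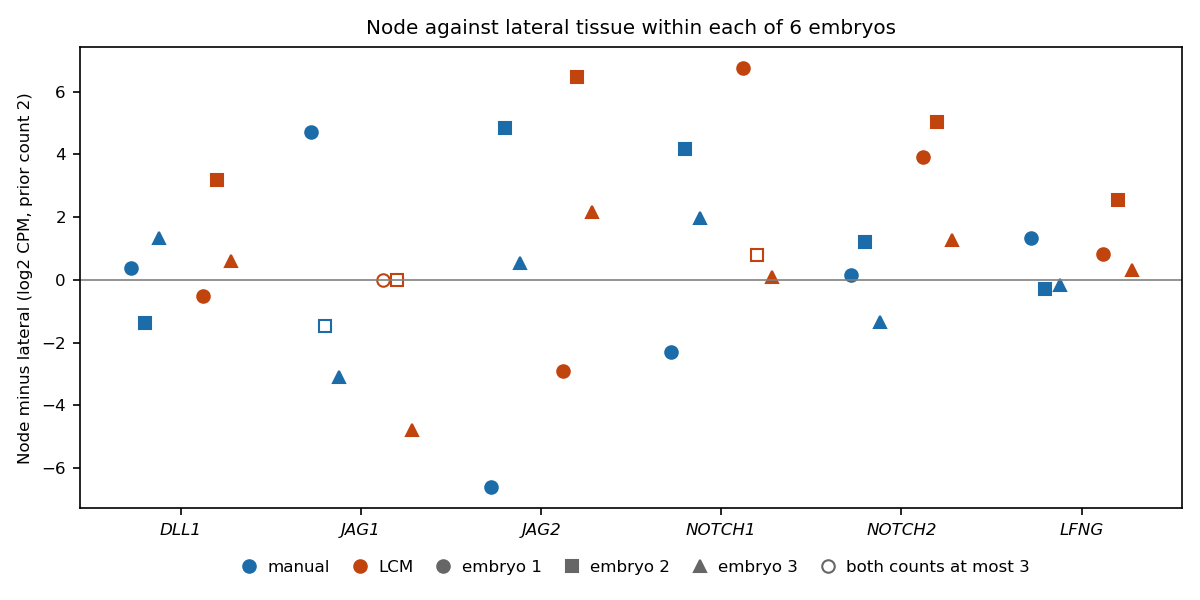
Node minus lateral difference in log2 CPM (prior count 2) within each embryo, for the 6 genes. Blue is manual and red is LCM, circles, squares and triangles are embryos 1, 2 and 3, and open symbols have at most 3 counts in both tissues. NOTCH2 and LFNG lie above 0 in all 3 LCM embryos, from 1.26 to 5.03 and from 0.33 to 2.54, while JAG2 ranges from -6.61 to 6.47.

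None of the 6 was called by edgeR between node and lateral tissue over both methods, where 0% of 9491 genes were called. None was called in manual embryos (0%), in LCM embryos (0.0211%, 2 genes) or for the difference between the methods (0%). Genes with an unadjusted p below 0.05 numbered 324, 93, 495 and 246 in these 4 comparisons, and DESeq2 called 242, 41, 869 and 255. Over all genes the median log2 fold change was 0.17 over both methods and 0.36 in LCM embryos, and the latter was 0.19 with median-of-ratios scaling, against which the member values should be read. NOTCH2 and LFNG had higher node than lateral values in all 3 LCM embryos, as did 14% of all genes. NOTCH2 did so in at least 5 of 6 embryos, as did 12.3%. NOTCH1 is left out of both counts because of its 1 count against 0 in LCM embryo 2. The shares over all genes keep such differences, and by that rule NOTCH1 would enter both counts. NOTCH2 and LFNG had the LCM node libraries as their 3 highest, as did 106 genes (1.12%). The orders counted here, and that of DLL1 between the methods, were not planned comparisons, and their shares are descriptions only.

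Of the other Notch pathway genes listed by role, 53 were in the table and 43 could be tested. None was called in any comparison. For node against lateral, 29 had positive and 14 negative fold changes, with a median of 0.21 beside 0.17 for all genes. For LCM against manual on embryo sums, 30 were positive and 13 negative, with a median of 0.65 beside 0.06, and 8 had an unadjusted p below 0.05, as did 13.3% of all genes. Among these 43 genes, 2 had all LCM libraries above all manual libraries, beside 2.09% of all genes, and 1 had all below, beside 238 genes or 2.51%. None had the LCM node libraries as its 3 highest, beside 1.12%.

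Among further ligands, EGFL7, a secreted Notch-binding protein of endothelium, was the one gene tested. It was uneven in LCM tissue, with node and lateral counts of 521 against 0, 1 against 1659 and 235 against 376, against at most 140 in manual libraries. Its log2 fold change between methods was 2.75 ± 1.32. Of the enzymes that glycosylate Notch, 6 were tested. GXYLT1, a xylosyltransferase, and POGLUT1, the protein O-glucosyltransferase, had fold changes between methods of 1.36 ± 0.49 and 1.18 ± 0.43, with edgeR adjusted p of 0.289 and 0.295. For node against lateral they had 0.75 ± 0.57 and -0.44 ± 0.45, and GXYLT2 had 1.84 ± 2.49. Radical fringe (RFNG), the other fringe enzyme tested, had -0.28 ± 1.57.

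The ubiquitin ligases that drive ligand endocytosis differed in how evenly they were counted. MIB1 had counts in all 12 libraries, from 68 to 1802, and log2 fold changes of -0.69 ± 0.63 for node against lateral and -0.18 ± 1.00 for LCM against manual. Its lowest count, 68 in LCM node 2, is near the size of the carried share of manual lateral 1, which had 1754. MIB2 was at 0 in 5 libraries and reached 1787 counts in LCM node 1, with fold changes of 4.42 ± 4.0 and 2.16 ± 2.10. Of the cleavage enzymes, the 5 tested were all positive for node against lateral, with a median of 0.20 beside 0.17 for all genes, and none had an unadjusted p below 0.05. The protease gene ADAM17 had 2.03 ± 2.06, ADAM10 had 0.40 ± 1.30, and PSEN2, a catalytic subunit of gamma-secretase, had 0.20 ± 0.78. Between methods ADAM17 had 2.71 ± 2.30 and PSEN2 -0.97 ± 0.79.

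Of the genes for receptor turnover and inhibition, 7 were tested for node against lateral, and none had an unadjusted p below 0.05. Of these, 2 were positive over both methods, with a median of -0.82 beside 0.17 for all genes, and 3 were positive in LCM embryos. DTX2, a Deltex ubiquitin ligase, had -4.42 ± 2.40, NUMB, the inhibitor handed to one daughter cell in asymmetric division, had -3.04 ± 1.88, and ITCH, another ubiquitin ligase, had -0.82 ± 0.61. NUMB had fewer node than lateral counts in 5 embryos and more in manual embryo 3, at 223 against 99. FBXW7, which marks the active receptor for degradation, had all LCM libraries (596 to 1968 normalized units) above all manual libraries (33.3 to 447.7). Its log2 fold change between methods was 2.89 ± 0.61, with an edgeR adjusted p of 0.205, and that of ITCH was -1.40 ± 0.56.

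In the nuclear complex, RBPJ, the DNA-binding partner of the cleaved receptor, had node and lateral counts of 1271 against 1204, 869 against 298 and 40 against 662 in manual embryos. In LCM embryos they were 0 against 202, 478 against 9 and 7 against 206. The tissue with more RBPJ thus differed from embryo to embryo, and its log2 fold change was -1.66 ± 2.40 for node against lateral and -2.22 ± 0.95 for LCM against manual (edgeR adjusted p 0.357). CIR1, a corepressor that binds RBPJ, had all LCM libraries (1694 to 2928 normalized units) above all manual ones (108.8 to 727.8), at 2.63 ± 0.60 with an edgeR adjusted p of 0.22.

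TLE4, a Groucho corepressor that acts with HES proteins, had the smallest p of the 43 genes for node against lateral, at 0.88 ± 0.37 with an edgeR adjusted p of 0.999. Its value was 1.51 ± 0.48 in manual embryos and 0.27 ± 0.47 in LCM embryos, a difference of -1.25 ± 0.67, and for LCM against manual it was 1.62 ± 0.46. TLE1, of the same family, had 2.34 ± 1.52 for node against lateral, and CIR1 had 0.53 ± 0.48.

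Of the target genes, 9 were tested and 8 had positive node against lateral fold changes, with a median of 1.02 beside 0.17 for all genes, though none had an unadjusted p below 0.05. In LCM embryos 5 of 9 were positive and the median was 0.29 beside 0.36. The HES and HEY repressors, described as a family although not all were selected by their p values, had 0.86 ± 1.24 for HES5, 1.85 ± 2.04 for HES1, 1.19 ± 1.93 for HEY1, 1.45 ± 2.39 for HES6 and 0.02 ± 1.25 for HES4. Their counts show how uneven they were. HES5 had node and lateral counts of 188 against 29, 140 against 277 and 170 against 44 in manual embryos, and 258 against 110, 196 against 1209 and 1236 against 438 in LCM embryos. Node tissue was thus higher in embryos 1 and 3 of each method and lower in embryo 2.

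Between methods, HES6, a HES-related factor of neural progenitors, had 1 to 35 counts in LCM libraries and 1 to 282 in manual libraries, at -3.53 ± 1.63. ID2, a helix-loop-helix inhibitor, had all LCM libraries (2600 to 6248 normalized units) below all manual libraries (6353 to 37890), the order that 2.51% of all genes had, at -1.59 ± 0.57 with an edgeR adjusted p of 0.284. For node against lateral ID2 had -0.23 ± 0.23, the cell cycle gene CCND1 0.28 ± 0.24 and ID1 2.04 ± 2.2.

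**Figure D3:**
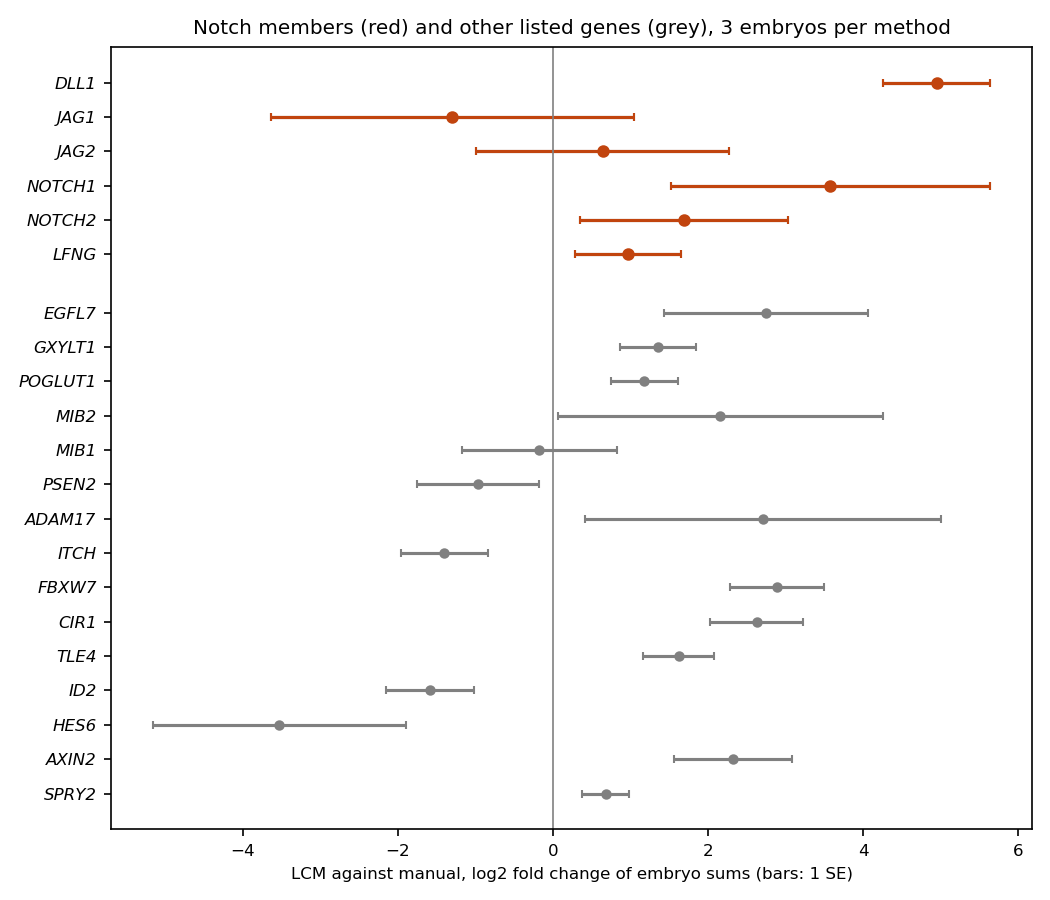
Log2 fold change of LCM against manual embryo sums (3 embryos per method), for the 6 members in red and for other listed genes in grey. Bars are 1 approximate standard error. DLL1 at 4.95 lies farthest from 0, FBXW7 and CIR1 lie at 2.89 and 2.63, ID2 at -1.59, and JAG1 and JAG2 have bars that cross 0.

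Genes that work beside DLL1, LFNG and HES factors in presomitic mesoderm gave no shared shift between methods, with a median log2 fold change of 0.06 over 9 tested genes, equal to that of all genes. AXIN2, a feedback inhibitor of the Wnt pathway that cycles in the segmentation clock of the mouse, had 2.32 ± 0.76, and SPRY2, a feedback inhibitor of FGF signalling, had 0.68 ± 0.30. Neither was called, with edgeR adjusted p of 0.248 and 0.385. For node against lateral SNAI2, a zinc finger factor of mesoderm and neural crest, had 1.47 ± 0.41, with an unadjusted edgeR p of 0.00348 and an adjusted p of 0.999. TBX6 had 1.22 ± 1.14 and AXIN2 0.68 ± 0.78. In LCM embryos alone TBX6 had 3.73 ± 1.55 and SNAI2 1.93 ± 0.58, both short of the threshold (edgeR adjusted p 0.906 and 0.757). In manual embryos they had -0.38 ± 1.22 and 1.02 ± 0.57. TBX6 had 52 node against 0 lateral counts in LCM embryo 2. Those 52 counts are about the size of the carried share of manual lateral 1, which had 1629. The TBX6 values given here keep them.

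The genes whose log2 CPM ran most like each member over the 12 libraries are given as a description. The 12 libraries come from 6 embryos and share method and depth, so a correlation over all of them includes the difference between the methods. For DLL1 these were SLC25A6, HNRNPAB and SERBP1, with Pearson's r of 0.968, 0.959 and 0.958 over the 12 libraries, 0.737 to 0.903 within the 6 LCM libraries and 0.709 to 0.807 within the 6 manual libraries. For NOTCH2 they were YLPM1, UPF2 and GCC2, at 0.919, 0.916 and 0.908, and each stayed at 0.807 or above within either method.

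For LFNG the nearest genes were GOT1, MCM2 and EXO1, at 0.904, 0.883 and 0.883. MCM2, part of the helicase that copies DNA, and EXO1, an exonuclease of DNA repair, had 0.965 and 0.929 within LCM libraries but 0.359 and 0.644 within manual libraries. For JAG2 they were NDUFA12, RECK and LRRC10, at 0.857, 0.822 and 0.793. JAG2 ran from 0 to 2716 counts and RECK from 0 to 1498. NDUFA12 varied far less, from 5836 to 10328 counts, as did LRRC10, from 27250 to 58481. For NOTCH1 they were the unnamed ENSGALG00000001948, COIL and GRAMD2, at 0.945, 0.896 and 0.888. For JAG1 they were TCF4, C14ORF166B and PAQR3, at 0.959, 0.922 and 0.904, which rest on the 3 libraries with more than 3 JAG1 counts.

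The 6 genes lie apart in the genome, as placed by the deposited table, for which the sources used here give no build. DLL1 spans 40170700 to 40178161 and JAG1 12844082 to 12878172, both on chromosome 3. JAG2 spans 52023888 to 52086423 on chromosome 5, NOTCH1 7809850 to 7842342 on chromosome 17, NOTCH2 4145809 to 4225658 on chromosome 8 and LFNG 3222765 to 3232769 on chromosome 14. JAG2 lies on the reverse strand and the others on the forward strand. Apart from JAG1, no member overlaps another row of the table. DLL4, NOTCH3 and MFNG were looked up but had no row under those symbols.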

How the data were processed

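The authors deposited raw read counts per Ensembl gene for 12 libraries, and a second table of normalized signal, made by dividing the counts of a library by 1 size factor. Recomputed median-of-ratios factors deviated from these by at most 0.0%. Per the labels' protocols, miRNeasy columns gave the total RNA and the SMARTer low RNA kit the libraries. Bowtie2 2.2.3 is named, without a role, per the submitters' processing notes. The sources used here do not give the counter, annotation, build or strand use. Counts entered every test and normalized values serve as levels. Columns were matched to samples by title, with 0 columns unmatched. Symbols came from the deposited file for 11420 genes, and from a RefSeq table, by gene ID, for 621 of the remaining 1686.

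Tests used edgeR 4.0.16 in R 4.3.3 (quasi-likelihood, TMM, filterByExpr by group, minimum count 10, minimum total 15) with Benjamini-Hochberg adjustment over all genes tested and calls at an adjusted p below 0.05. All adjusted p-values are edgeR's unless another tool is named. Each edgeR standard error (SE) is approximate. It was taken as the absolute log2 fold change divided by the square root of the test's F statistic. Node against lateral had the embryo as a block, since the labels give both libraries the same embryo. Deviations from group means correlated at 0.473, 0.116 and 0.215 within manual embryos and at 0.07, 0.03 and 0.067 within LCM embryos 1 to 3. LCM against manual used node plus lateral counts of each embryo, then each tissue alone. Within-embryo differences use log2 CPM (prior count 2). The fits were tested on simulated data with a smaller spread than these libraries, so power at the real spread was not tested. Alternatives were median-of-ratios factors, no low-count filter, DESeq2 1.42.0, limma 3.58.1 voom, the block added or left out, each embryo left out, each method fitted alone, and subtraction of the reads that LCM node 2 shares with manual lateral 1. That share, 3.45%, is the median ratio over 104 genes with at least 100 counts in manual lateral 1 and none outside manual embryo 1 and LCM node 2.

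The members and gene lists were chosen with earlier results of these data known. Named pathway genes are those called, otherwise up to 3 per list with the smallest p for node against lateral and up to 2 for LCM against manual, plus the 3 genes nearest each member by correlation. RBPJ, RFNG, HES1, HES4, HES5, HEY1, MSGN1, PCDH8, MEOX1, the node markers and single endoderm, neural plate and surface ectoderm markers were named in addition. CNOT1 was left out of the node markers because the symbol here is a subunit of the CCR4-NOT complex. Small inputs and amplification mean that counting limits, such as 3 counts for a 0, cover counting error only. No sequence is shown.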

Additional observations from a re-analysis of the deposited data

Results flagged for a closer look

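JAG1 gave both values that stood apart among 30 groups of 6 libraries examined. Chance flags about 1 in 20 groups, but this rate does not hold where most libraries are tied at 0. In the 6 node libraries, manual node 1 stood apart at 2.21 log2 CPM, with 128 counts against 1 in manual node 3 and 0 in the other 4. In the 6 LCM libraries, LCM lateral 3 stood apart at 1.20 log2 CPM, with 73 counts against 0 in the other 5. With those 5 tied at 0, a flag was fixed in advance for any higher value.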

How the results depend on the processing

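Of 477 alternative values for the members, 431 were counted as keeping their sign and side of the threshold, 9 passed it and 37 changed sign. The 431 include JAG1 and JAG2 values for which DESeq2 gave no adjusted p. They also include JAG1 in LCM embryos without LCM embryo 3, which cannot be estimated. The 37 include the JAG1 difference between methods without LCM embryo 3, which cannot be estimated, as stated below. The number of members called moved from 0 to 1 with DESeq2 for node against lateral in LCM embryos (NOTCH2), and for LCM against manual in all 3 comparisons with DESeq2 and without a low-count filter (DLL1). Leaving out an embryo gave 0 to 1 called member on embryo sums and in node libraries, the 1 being DLL1 without manual embryo 1. The cause of these moves was not tested. Over all genes, edgeR without the filter called 36 genes for node against lateral over both methods, 7 in manual embryos, 33 in LCM embryos, 5 for their difference, 19 on embryo sums, 50 in node and 124 in lateral libraries, where DESeq2 called 242, 41, 869, 255, 721, 394 and 369. On embryo sums edgeR called 134 genes without manual embryo 1, 2 with the carried share subtracted and 1 with median-of-ratios factors. With limma voom the sign turned for JAG2 over both methods (-0.30), in the difference between methods (-0.04), on embryo sums (-2.26), in node libraries (0.16) and in lateral libraries (-4.30), and for NOTCH2 in manual embryos (0.05). DESeq2 turned NOTCH2 in manual embryos (0.00) and the JAG1 difference (0.77). Without the embryo as a replicate block the sign turned for JAG2 over both methods (-0.62), in LCM embryos (-2.40) and in the difference (-3.56), for JAG1 in manual embryos (1.77) and for NOTCH2 in manual embryos (0.36). With a replicate block for LCM against manual, whose numbers name different embryos (correlations of deviations -0.059, -0.031 and 0.023), no member was called (0), DLL1 had 5.02 on embryo sums with an edgeR adjusted p of 0.079, and the sign turned for JAG2 on embryo sums (-2.63) and in lateral libraries (-6.41) and for NOTCH2 in lateral libraries (-0.51). Leaving out each embryo gave ranges in manual embryos of -0.49 to 0.83 for DLL1, -4.37 to 1.36 for JAG1, -3.53 to 2.74 for JAG2, -0.06 to 4.97 for NOTCH1, -0.75 to 0.70 for NOTCH2 and -0.20 to 0.58 for LFNG. For the difference between methods the ranges were -0.07 to 1.78 for DLL1, -6.80 to 2.09 for JAG1, -0.08 to 8.47 for JAG2 and -1.44 to 4.41 for NOTCH1. The JAG1 value of 2.09 came without LCM embryo 3, had no standard error that could be estimated, and gives no direction. Without that embryo all LCM libraries had 0 JAG1 counts, so their JAG1 fold cannot be estimated. On embryo sums the ranges were -8.43 to 0.30 for JAG1 and -3.21 to 1.23 for JAG2. The JAG1 value of -8.43 also came without LCM embryo 3 and rests on those counts of 0. In lateral libraries the ranges were -10.95 to 2.85 for JAG2 and -1.99 to 2.19 for NOTCH2. JAG1 had few counts, as did NOTCH1 in manual embryos, and most of them were under 30. The part of depth, input or amplification in these low counts was not tested.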
